A study of Mus musculus with 3 samples.

Results

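The 10 genes described here serve the making, secretory work and survival of plasma cells, and were measured in bulk RNA sequencing of lungs from 3 male C57Bl/6 mice. They were taken by name from a table of 53342 genes: Mzb1 and Derl3 of the secretory programme, the transcription factors Xbp1, Prdm1 and Irf4, the surface proteoglycan Sdc1, the receptors Tnfrsf17 and Tnfrsf13b, and their ligands Tnfsf13b and Tnfsf13. Each of the mice, called mouse 4, 5 and 6 after the last digit of its label, had been challenged through the trachea with 50 µL of Mycobacterium abscessus microparticles, at a dose matching 1000000 bacteria, and had then received 5 µg of MIA-602 daily under the skin for 3 weeks. MIA-602 blocks the receptor of growth hormone-releasing hormone, and the microparticles are given so that granulomas form, in a study of sarcoidosis. The age of the mice was not given in the sources used here. All 3 lungs form 1 group, and lungs without the drug or without the challenge were not analysed here, so the values describe treated, challenged lungs and the spread among them.

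A plasma cell arises when a B cell switches on Irf4 and Prdm1, loses its B cell programme and, under Xbp1, enlarges its endoplasmic reticulum (ER) to fold and export antibody. Its survival depends on the cytokines BAFF (Tnfsf13b) and APRIL (Tnfsf13), which myeloid and stromal cells supply and which bind the receptors BCMA (Tnfrsf17) and TACI (Tnfrsf13b). In the lung, such cells lie around airways and vessels and supply much of the IgA of the airway surface.

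Sequencing depth was 43845715 counts for mouse 4, 35674761 for mouse 5 and 31579465 for mouse 6. The lung of mouse 4 stood apart in markers of tissue other than plasma cells: skeletal muscle markers summed to 4497, 1654 and 1424 CPM in mice 4, 5 and 6, and club cell markers to 8989, 24521 and 21709 CPM. CPM stands for counts per 1000000 after library scaling and serves for levels within a gene, whereas CPM per kilobase of annotated exon serves for levels between genes. Ratios of the highest to the lowest mouse were taken on CPM + 0.5, except where 2 mice are named. Means are given with the SD over the mice (n = 3). All 10 genes passed the filter on low counts, with 17636 genes tested in all. All but Tnfrsf17, 9 of the 10, reached 1 CPM in every mouse, as did 15200 of the 17636.

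Mzb1 and Derl3, the pair most tied to antibody secretion, were the members that differed most between the lungs. Mzb1, an ER protein that helps assemble and secrete immunoglobulin (ENSMUSG00000024353, chromosome 18, 35647267 to 35649367), had 27.2, 16.4 and 23.1 CPM in mice 4, 5 and 6, from 1170, 592 and 734 counts. Derl3, a channel component that passes misfolded proteins out of the ER (ENSMUSG00000009092, chromosome 10, 75893413 to 75895941), had 10.6, 6.42 and 8.74 CPM, from 456, 232 and 277 counts. Both genes were highest in mouse 4 and lowest in mouse 5. Mouse 4 exceeded mouse 5 by 1.66-fold for Mzb1 and by 1.65-fold for Derl3, and mouse 6, leaving mouse 4 aside, exceeded mouse 5 by 1.41-fold and 1.36-fold. The coefficients of variation were 24.5% and 24.4%, whereas those of the other 8 members lay between 4.45% and 14.8%. Neither difference passed the test of spread between mice, in which each gene's variability is set against the trend of genes of like abundance. Mzb1 had an unadjusted p of 0.0540 and a Benjamini-Hochberg adjusted p of 0.955 in edgeR's quasi-likelihood fit, and Derl3 0.157 and 0.984. In the annotation, 695 exonic bases of Mzb1 (57.2%) also belong to the gene SPATA24, which is not a row of the counts table.

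The counts of Mzb1 and Derl3 kept close to a fixed proportion. Derl3 had 0.390, 0.392 and 0.377 counts for each count of Mzb1 in mice 4, 5 and 6, with exact 95% binomial intervals of 0.349 to 0.435, 0.335 to 0.457 and 0.327 to 0.434. These intervals overlap throughout, so no difference in the ratio was resolved beyond counting error, and a smaller one could be missed. The pairs of genes in these ratios were chosen after their values were seen. The ratio of Mzb1 to IgA transcripts was also nearly constant. Igha, the heavy chain of IgA, had 1575, 929 and 1220 CPM, and Mzb1 stood at 0.0172, 0.0176 and 0.0190 counts for each count of Igha (intervals 0.0163 to 0.0183, 0.0162 to 0.0191 and 0.0176 to 0.0204). Jchain, which joins IgA and IgM units into polymers, had 401, 273 and 286 CPM. Its proportion to Mzb1 was less constant, with 0.0677, 0.0600 and 0.0808 counts of Mzb1 for each of Jchain. The interval of mouse 6 (0.0749 to 0.0871) overlapped neither mouse 4 (0.0638 to 0.0718) nor mouse 5 (0.0551 to 0.0652). Jchain had 0.173, 0.220 and 0.172 counts for each count of the light chain gene Igkc. There the interval of mouse 5 (0.215 to 0.225) overlapped neither of the others. Cd79a, a signalling chain of the B cell receptor, was the only B cell identity gene compared so. Against Cd79a, Mzb1 had 0.265, 0.240 and 0.201 counts. The intervals of mice 4 and 6 (0.248 to 0.283 and 0.186 to 0.218) did not overlap. Intervals cover counting error only.

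**Figure D1:**
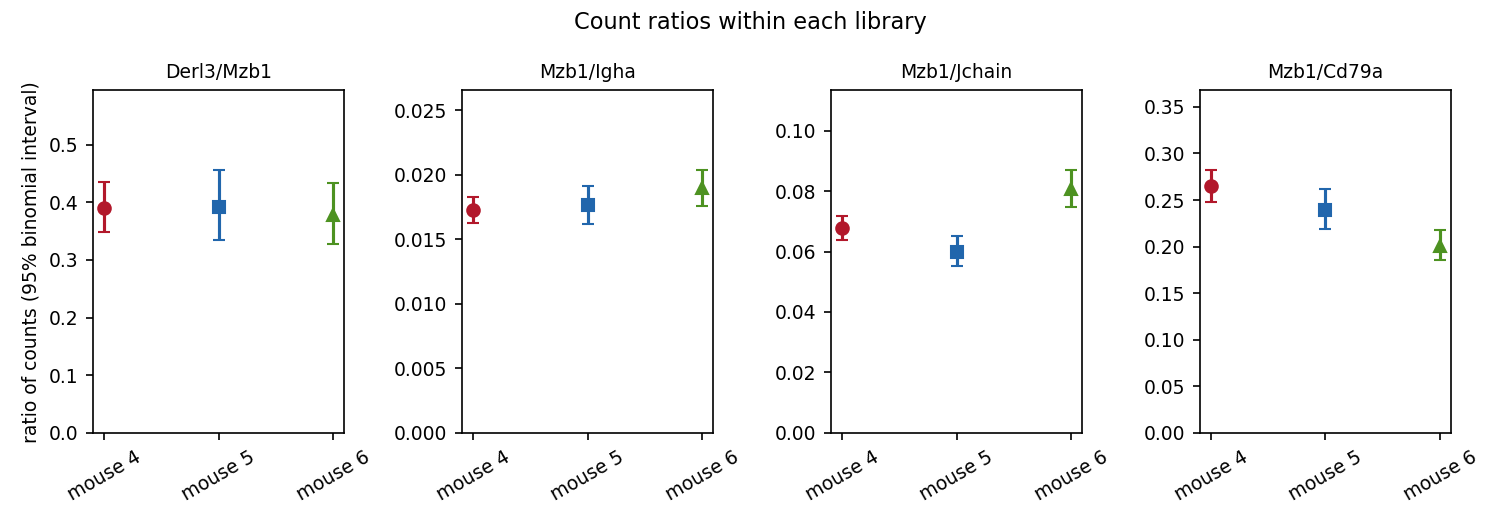
Ratio of the counts of gene pairs within each library, with exact 95% binomial intervals, for mice 4, 5 and 6. The Derl3 to Mzb1 ratio lies between 0.377 and 0.392, while the Mzb1 to Cd79a ratio lies between 0.201 in mouse 6 and 0.265 in mouse 4.

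All 7 immunoglobulin constant genes were lowest in mouse 5, and for 3 of them the highest lung exceeded the lowest by more than 2-fold. Over all genes tested, 36.8% were lowest in mouse 5 and 3.32% exceeded 2-fold. None of the 7 passed the test of spread, but 5 of 7 did with no filter on low counts, a setting under which 629 of 30751 genes (2.05%) did. Passing there was not particular to antibody genes. Of other markers, 5 of 5 of skeletal muscle and 5 of 6 basal and squamous ones passed, and 0 of 4 of endothelium. Igkc, the kappa light chain, had 2323, 1242 and 1664 CPM, Ighm, the heavy chain of IgM, 777, 419 and 478 CPM, and Ighg2c 228, 92.5 and 137 CPM in mice 4, 5 and 6. Ighg2b had 188, 87.3 and 120 CPM. Ighg1 was level between mice 4 and 6, with 180, 99.1 and 180 CPM. Ighg3 was clearly highest in mouse 6, with 18.8, 10.4 and 37.3 CPM. The order of mouse 4, then 6, then 5 was shared by 5 of these 7 genes and by 3 of the 10 members (Mzb1, Derl3 and Irf4), against 19.7% of all genes tested. That order was added as a description after the values were seen. It was also that of 8 of 9 macrophage and monocyte markers, with summed levels of 14107, 11138 and 11367 CPM. Likewise, 5 of 5 skeletal muscle markers and 6 of 6 basal and squamous markers were highest in mouse 4, against 33.4% of all genes tested. The part of these cells in the order of the members was not tested. In bulk tissue, fewer cells of a type and less RNA in each cannot be told apart.

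**Figure D2:**
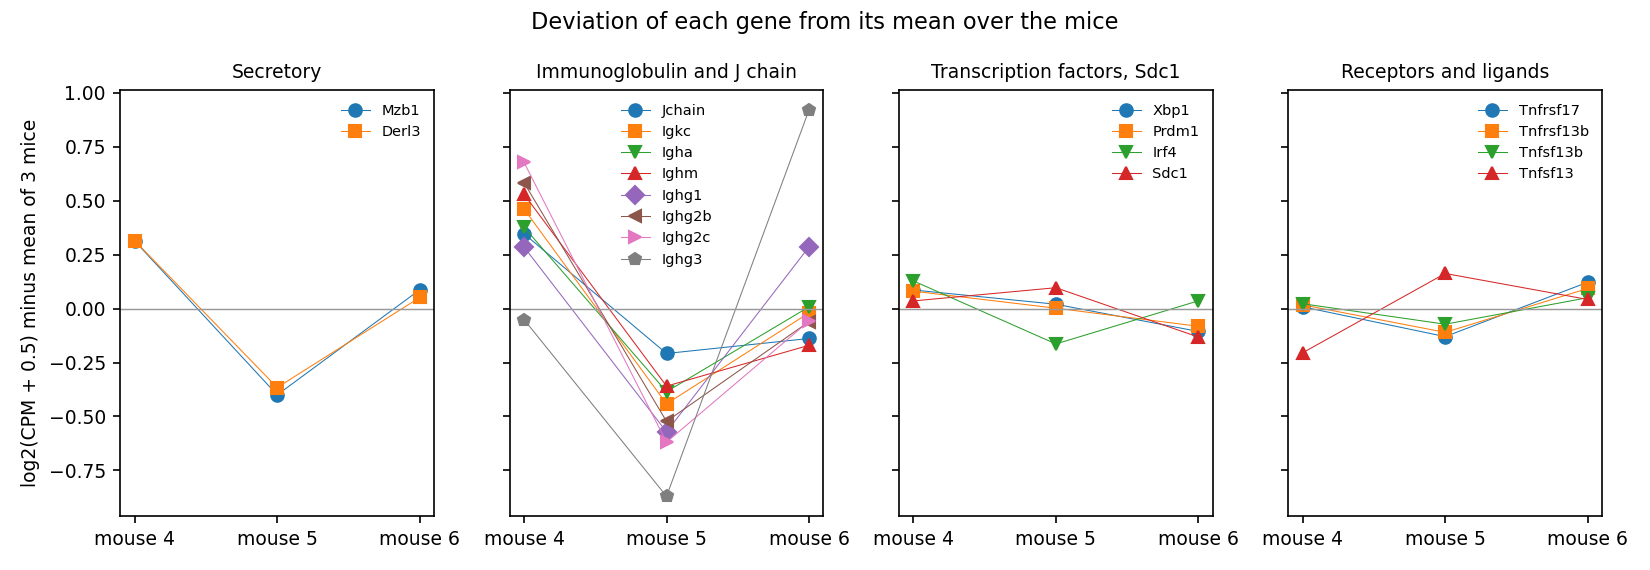
Each gene's log2(CPM + 0.5) in mice 4, 5 and 6 minus its mean over the 3 mice, in 4 panels; thin lines join the points of the same gene. Mzb1 and Derl3 lie on each other and go with most antibody genes, being highest in mouse 4 and lowest in mouse 5, while the transcription factors, Sdc1, receptors and ligands stay nearer 0.

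Of the other plasma cell genes, 12 of 13 were lowest in mouse 5 and 10 of 13 were highest in mouse 4, against 36.8% and 33.4% of all genes tested. Their median ratio of the highest to the lowest mouse was 1.40, against 1.21 over all genes tested. The most abundant per kilobase after Jchain were the homing receptor Cxcr4, with 157, 110 and 114 CPM, the ectoenzyme Cd38, with 136, 89.6 and 110 CPM, and the surface receptor Slamf7, with 142, 81.4 and 101 CPM. Pou2af1, a coactivator of immunoglobulin genes, had 33.6, 22.9 and 30.1 CPM. None of these 13 genes passed the test of spread, although Slamf7 did with no filter on low counts (adjusted p = 0.0163 in edgeR). Under that setting 2.05% of 30751 genes passed. Macrophages, T cells and B cells also make Cxcr4, Cd38 and Slamf7.

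Xbp1 and Sdc1 were the most abundant of the 10 genes and hardly differed between lungs. Xbp1, the transcription factor that enlarges the secretory apparatus (ENSMUSG00000020484, chromosome 11, 5520659 to 5525893), had 222, 212 and 194 CPM in mice 4, 5 and 6. Its mean of 64.5 ± 4.33 CPM per kilobase placed it above 95.7% of the genes tested. Sdc1, the proteoglycan CD138 used to sort plasma cells (ENSMUSG00000020592, chromosome 12, 8771323 to 8793715), had 237, 248 and 211 CPM and 61.0 ± 4.92 CPM per kilobase. The highest mouse exceeded the lowest by 1.14-fold for Xbp1 and 1.17-fold for Sdc1, and neither followed the order of Mzb1. Both genes are also known from epithelium, where Sdc1 is the main surface heparan sulfate proteoglycan and Xbp1 serves secretory cells. Alveolar type 2 markers summed to 21152, 28576 and 25719 CPM (5 of 5 above 1 CPM in each mouse), club cell markers to 8989, 24521 and 21709 CPM (4 of 4), and basal and squamous markers to 381, 143 and 123 CPM (6 of 6). The part of these cells in the Xbp1 and Sdc1 levels was not tested.

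XBP1 protein becomes an active factor only after the enzyme IRE1 cuts a short intron out of its mRNA. The segment of transcript Xbp1-201 (GENCODE M21, exon 4, plus strand, chr11:5524264-5524319 of mm10) is shown because the counts cannot tell the cut from the uncut form. The capitals mark the 26 bases removed. They run from the middle of the first to the middle of the second of a pair of sites reading C, any base, GCAG. The pair was picked by its known exon and spacing.
Xbp1-201: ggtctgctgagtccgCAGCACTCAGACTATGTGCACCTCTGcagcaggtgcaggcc
The gene count pools both forms, so the level of 64.5 CPM per kilobase is that of their sum. Ern1, which encodes IRE1, had 42.3, 38.9 and 39.0 CPM in mice 4, 5 and 6. Ern2, its relative of mucous epithelium, had 19, 6 and 11 counts. Atf6 and its relative Atf6b, stress sensors of the ER membrane, had 56.7, 61.4 and 53.6 CPM and 84.5, 74.4 and 73.0 CPM. Atf4 and Ddit3, factors of the stress response, had 267, 287 and 301 CPM and 28.0, 27.1 and 25.8 CPM.

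By list median, genes of the ER apparatus stood above all genes tested and differed little between lungs. The 20 chaperone and folding genes had median levels of 63.4, 55.1 and 58.4 CPM per kilobase in mice 4, 5 and 6, against 4.40, 4.45 and 4.43 for all genes tested. Their median ratio of the highest to the lowest mouse was 1.11. Calr (calreticulin) had 1178, 847 and 961 CPM, the disulfide isomerases Pdia3 and P4hb 798, 753 and 755 CPM and 576, 589 and 587 CPM, and the chaperone Hsp90b1 732, 717 and 710 CPM. The 10 ER degradation genes had a median ratio of 1.13, and Derl1 and Derl2, relatives of Derl3, had 105, 111 and 106 CPM and 92.8, 87.7 and 94.0 CPM. Derl3 itself had a ratio of 1.60 on the same CPM + 0.5 scale. Os9, Vimp and Herpud1, which feed the same degradation route, had 258, 234 and 229 CPM, 107, 122 and 113 CPM and 131, 135 and 125 CPM. The 14 translocation and export genes had a median ratio of 1.12 and were led per kilobase by Sec61b at 107, 103 and 119 CPM, Ssr3 at 271, 266 and 258 CPM, Ssr2 at 128, 131 and 122 CPM and Spcs1 at 84.8, 95.8 and 93.4 CPM. Every cell that secretes uses these genes. Of the 44 genes of these 3 lists, none passed the test of spread. The order 4, 6, 5 was held by 9 of 20, 3 of 10 and 5 of 14, against 19.7% of genes tested. In the same lists, 13, 5 and 8 genes were highest in mouse 4, against 33.4% of genes tested. Single genes departed from the medians, with a ratio of 1.39 for Calr, and Srp54a above only 7.58% of genes tested.

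Among the 9 members with a RefSeq promoter window (250 bases before to 50 bases from the transcript start, GRCm38.p6), Derl3 was the sole one with an ER stress element, CCAAT and CCACG separated by 9 bases, on either strand. The same element stood in 0.119% of 32851 promoter windows, or 0.137% of 27025 genes, and in 8 of the 36 ER genes with a window. The Derl3 window is shown whole (chr10:75893148-75893447, plus strand), with the element, here on the reverse strand, in capitals.
Derl3: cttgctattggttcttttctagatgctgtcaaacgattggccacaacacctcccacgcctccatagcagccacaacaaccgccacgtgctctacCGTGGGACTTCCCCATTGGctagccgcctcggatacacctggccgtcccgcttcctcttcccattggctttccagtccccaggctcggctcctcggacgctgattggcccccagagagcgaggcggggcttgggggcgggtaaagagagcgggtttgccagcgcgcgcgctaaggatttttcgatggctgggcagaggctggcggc
The element of Derl3 ran from -156 to -138, counted from the transcript start. This window held 5 CCAAT boxes on the 2 strands together, a number reached by 0.271% of windows. The ER genes with the element are shown for comparison, read along the gene's strand, with flanking bases in lower case.
Hspa5, chr2:34772017-34772051, plus strand: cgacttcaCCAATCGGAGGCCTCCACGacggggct
Calr, chr8:84847067-84847101, minus strand: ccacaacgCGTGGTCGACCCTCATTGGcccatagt
Canx, chr11:50325792-50325826, minus strand: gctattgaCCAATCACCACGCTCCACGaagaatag
Pdia6, chr12:17266483-17266517, plus strand: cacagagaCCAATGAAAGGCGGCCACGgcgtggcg
Dnajc3, chr14:118937819-118937853, plus strand: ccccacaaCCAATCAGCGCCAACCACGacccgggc
Creld2, chr15:88819512-88819546, plus strand: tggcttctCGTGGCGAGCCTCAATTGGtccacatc
Syvn1, chr19:6046524-6046558, plus strand: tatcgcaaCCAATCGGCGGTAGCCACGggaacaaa
Hsp90b1 held it at 2 positions, once on each strand:
Hsp90b1, chr10:86705630-86705664, minus strand: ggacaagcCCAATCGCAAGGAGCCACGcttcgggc
Hsp90b1, chr10:86705525-86705559, minus strand: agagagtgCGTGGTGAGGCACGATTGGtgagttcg
The shorter elements ATTGG and CCACG with 1 base between them, and TGACGTGG, were found in none of the 9 members with a window. They stood in 0.0365% and 0.676% of all windows. A match of letters is a description and shows no binding.

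The transcription factors that commit a B cell to the plasma cell fate were modest in level and even between lungs. Prdm1, the repressor Blimp-1 (ENSMUSG00000038151, chromosome 10, 44437177 to 44528501), had 14.3, 13.5 and 12.7 CPM in mice 4, 5 and 6. Irf4, which acts in plasma cells, activated T cells and some macrophages and dendritic cells (ENSMUSG00000021356, chromosome 13, 30749226 to 30766976), had 12.7, 10.3 and 11.9 CPM. Their highest and lowest lungs differed by 1.12-fold and 1.22-fold. Irf4 was lowest in mouse 5, as Mzb1 was, whereas Prdm1 was lowest in mouse 6. T cell markers (6 of 6 above 1 CPM in each mouse) summed to 333, 238 and 374 CPM, and dendritic cell markers (6 of 6) to 143, 118 and 156 CPM. Their part in the Irf4 level was not tested. Genes of B cell identity were present in every lung. Of 12 such genes, 11 were lowest in mouse 5, against 36.8% of all genes tested. None passed the test of spread, but 2 of the 12 did with no filter on low counts, a setting under which 2.05% of 30751 genes did. Their median ratio of the highest to the lowest mouse was 1.47. Cd79a had 102, 68.3 and 115 CPM, Cd79b 57.6, 50.2 and 71.3 CPM and Spib 60.0, 39.0 and 56.1 CPM. Mouse 6 was the highest for 6 of the 12, Cd79a and Cd79b among them, as for 5318 of the 17636 genes tested. The other 6, Spib among them, held the order 4, 6, 5 of Mzb1, against 19.7% of genes tested.

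Of the receptors that the survival ligands share, TACI was well above BCMA in each lung. Tnfrsf17 (BCMA), the receptor of long-lived plasma cells (ENSMUSG00000022496, chromosome 16, 11313812 to 11320074), had 31, 22 and 26 counts in mice 4, 5 and 6, or 0.720, 0.608 and 0.820 CPM. The exact 95% Poisson intervals of these levels, 0.489 to 1.02, 0.381 to 0.921 and 0.536 to 1.20 CPM, overlap, so no difference between the mice was detectable at this depth. Tnfrsf13b (TACI), carried by B cells and plasma cells (ENSMUSG00000010142, chromosome 11, 61126755 to 61149372), had 20.8, 19.0 and 21.9 CPM. Per kilobase, Tnfrsf17 had 0.120, 0.111 and 0.130 times the level of Tnfrsf13b. The difference was -2.32 ± 0.0256 on the log2 scale, (CPM + 0.5) per kilobase, lower in 3 of 3 mice. With a pseudocount of 0.1 it was -2.87 ± 0.0849. At the low level of Tnfrsf17, both the difference and its SD thus depend on the pseudocount, and the small SD is no measure of precision. The exact two-sided sign-flip permutation test gave p = 0.25, the smallest it can give with 3 mice, so no difference could pass. Tnfrsf13c, the BAFF receptor of mature B cells, had 18.4, 12.5 and 20.4 CPM and 8.34 ± 2.02 CPM per kilobase, near the 7.26 ± 0.524 of Tnfrsf13b. The highest lung exceeded the lowest by 1.15-fold for Tnfrsf13b and by 1.61-fold for Tnfrsf13c, a contrast that was not tested.

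Of the ligands, BAFF had the higher level as counted, but the size of the gap rests on how the reads of APRIL were assigned. Tnfsf13b (BAFF; ENSMUSG00000031497, chromosome 8, 10006467 to 10039072) had 57.2, 53.5 and 58.3 CPM in mice 4, 5 and 6, a span of 1.09-fold and the narrowest of the 10 genes. Tnfsf13 (APRIL; ENSMUSG00000089669, chromosome 11, 69682846 to 69685784) had 3.30, 4.40 and 4.01 CPM from 142, 159 and 127 counts, and was the only member lowest in mouse 4. Per kilobase, Tnfsf13b stood at 4.13, 2.90 and 3.47 times Tnfsf13. The difference was 1.63 ± 0.231 on the log2 scale of (CPM + 0.5) per kilobase, higher in 3 of 3 mice (exact two-sided sign-flip permutation p = 0.25, the smallest possible). In the annotation, 983 of the 1637 exonic bases of Tnfsf13 (60.0%) also belong to Tnfsfm13, a readthrough gene of Tnfsf12 and Tnfsf13 that had 147, 109 and 70 counts. The antisense gene Tnfsf13os, with 283, 227 and 211 counts, covers 221 of the exonic bases of Tnfsf13. With the counts of Tnfsfm13 added to Tnfsf13 the difference was 0.90, and with Tnfsf13 set over the 654 bases it does not share with Tnfsfm13 it was 0.31, both higher in 3 of 3 mice. No setting left out the bases covered by Tnfsf13os, so whether BAFF would stay higher there was not tested. How the authors' counting treated reads in shared exons is not given in the sources used here.

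The rest of the BAFF and APRIL axis was expressed in every lung, with 16 of 16 genes at 1 CPM or more in each. Most genes reached that level, with 15200 of the 17636 tested. Mcl1, the anti-apoptotic protein on which plasma cells depend, had 659, 541 and 587 CPM in mice 4, 5 and 6. Nfkb2, the subunit through which the BAFF receptor signals, had 148, 105 and 142 CPM, and the related cytokine gene Tnfsf12 55.3, 42.9 and 45.5 CPM. Bcl2l1, another survival gene, had 113, 124 and 117 CPM. None of the 16 passed the test of spread, and their median ratio of the highest to the lowest mouse was 1.22. In a list of cytokines and a receptor tied to the plasma cell niche, Cxcl12, the chemokine that draws plasma cells to stromal cells, was the most abundant per kilobase at 222, 210 and 199 CPM, followed by Csf1, a growth factor of macrophages, at 79.8, 69.8 and 76.1 CPM and Il6ra, the interleukin-6 receptor, at 42.6, 42.8 and 40.6 CPM. Il6 itself had 54, 55 and 55 counts, Il10 67, 29 and 50, and Il21 62, 32 and 56.

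**Figure D3:**
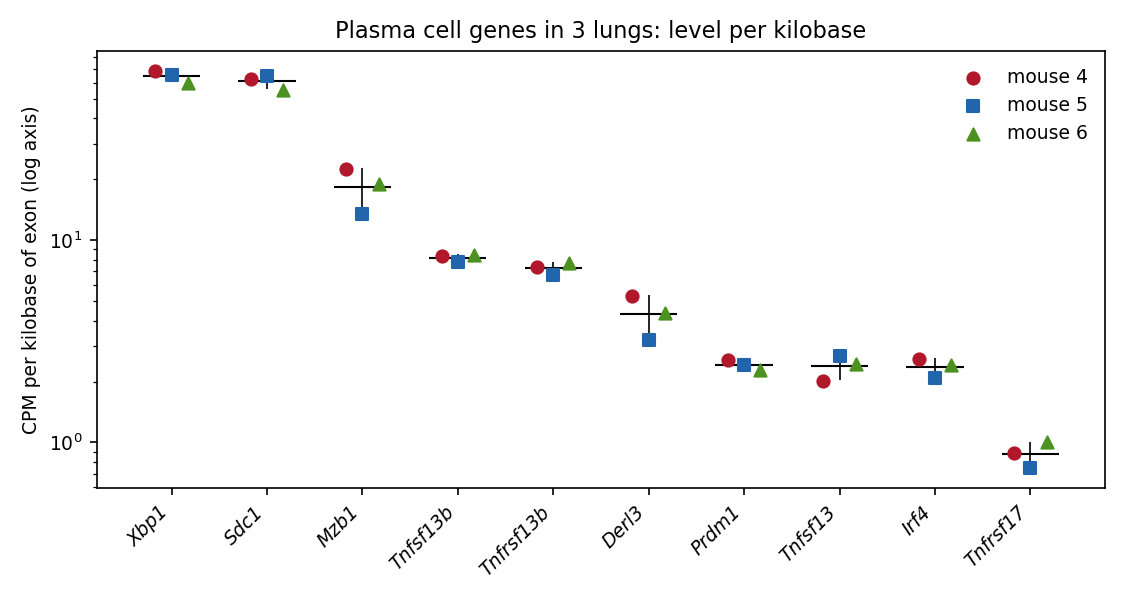
Level of each of the 10 genes in CPM per kilobase of exon (log axis) in mice 4, 5 and 6, with horizontal bars at the mean and vertical bars of 1 SD. Xbp1 and Sdc1 lie at 64.5 and 61.0 CPM per kilobase, Mzb1 at 18.3, and Tnfrsf17 lowest at 0.879.

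In the order of level per kilobase, Xbp1 and Sdc1 led at 64.5 and 61.0, followed by Mzb1 at 18.3 ± 4.49, Tnfsf13b at 8.20 ± 0.365, Tnfrsf13b at 7.26 ± 0.524 and Derl3 at 4.30 ± 1.05. Prdm1, Tnfsf13 and Irf4 stood together at 2.41 ± 0.141, 2.38 ± 0.341 and 2.37 ± 0.251, and Tnfrsf17 was last at 0.879 ± 0.130. Neighbours in this order kept their order in 3 of 3 mice, except that Prdm1 exceeded Tnfsf13 in 1 of 3 and Tnfsf13 exceeded Irf4 in 2 of 3. Xbp1 exceeded Sdc1 by 0.08 ± 0.07 and Tnfsf13b exceeded Tnfrsf13b by 0.18 ± 0.04 on the log2 scale. With the longest transcript as length these differences were 0.42 and 0.55, so how close the pairs stood depends on the length used. Mzb1 lay above 83.0% of genes tested, Derl3 above 49.0% and Tnfrsf17 above 18.6%.

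Over the whole table, edgeR's quasi-likelihood test called 0 of 17636 genes (0%) and none of the 10 members more variable than the trend after Benjamini-Hochberg adjustment. At an unadjusted p under 0.05 it gave 867 genes and no member. The smallest adjusted p of any gene in this edgeR test was 0.806. Acta1, a skeletal muscle marker with a ratio of 3.26 between lungs, had 0.837. Not passing therefore does not show that a gene was even between lungs. DESeq2 marked 102 genes (0.578%) as dispersion outliers, again with no member among them, though Ighg3 was one. No member differed by more than 2-fold between its highest and lowest lung, as did 3.32% of genes tested. The members' median ratio was 1.18, against 1.21 for all genes tested. Of the 10, 5 were highest in mouse 4 and 1 was lowest there, where 33.4% and 33.3% of all genes were, and 6 of the 10 were lowest in mouse 5, against 36.8% of all genes.

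**Figure D4:**
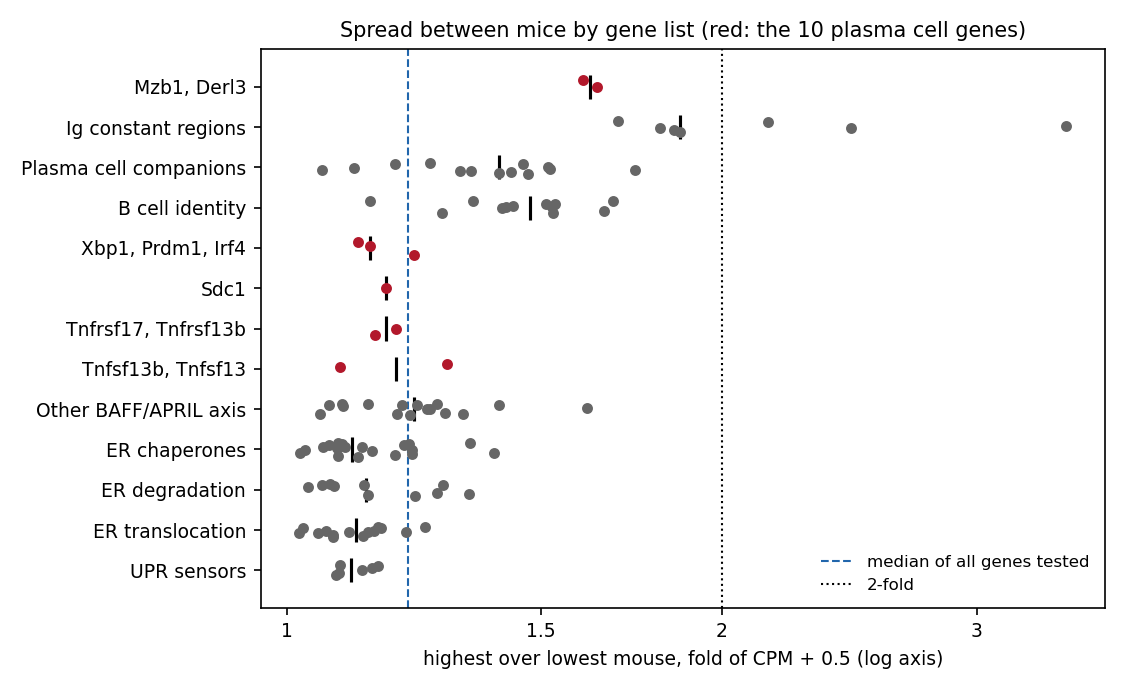
Ratio of the highest to the lowest mouse on the CPM + 0.5 scale (log axis) for each gene of each list, with the 10 plasma cell genes in red, list medians as black ticks, the median of all genes tested (1.21) as a dashed line and 2-fold as a dotted line. Mzb1 and Derl3 stand at 1.64 and 1.60, between the immunoglobulin genes and the other 8 members, which lie at 1.29 or less.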

How the data were processed

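Total RNA of each lung was made into mRNA libraries, with bcl2fastq 2.17, Trim Galore 0.6.2, the aligner STAR 2.5.2a and the mm10 build listed in the submitters' processing notes. The deposited table holds unnormalized read counts, with a column for each mouse. No source used here gives the counting program, the annotation behind it or whether strand was used. GENCODE M21 gave symbols to 53237 of 53342 identifiers (99.8%) and supplied positions (1-based) and the union exon length of each gene. The table held no mitochondrial genes of that annotation.

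Counts were scaled by TMM. Spread between mice was tested in edgeR 4.0.16 (R 4.3.3) after filterByExpr, with an intercept alone: a robust quasi-likelihood fit, then an upper-tail F test of each gene's quasi-dispersion against the trend (3.88 prior degrees of freedom), Benjamini-Hochberg adjusted over 17636 genes, threshold 0.05. The labels give 1 group, so there was no contrast between groups, and no outlier test was run on 3 samples. The spread test was checked on simulated data, with genes placed on the fitted trend apart from planted shifts. Real genes also scatter about the trend, so the check does not show how well the test calls genes here. DESeq2 1.42.0 was an alternative. Logs were taken with a pseudocount of 0.5 CPM. The 2 pairs of levels were compared by an exact sign-flip test. Python 3.11.15 with scipy 1.17.1 gave intervals. Promoter windows come from RefSeq (GRCm38.p6), and none is shown for Mzb1. The counts are of reads without molecular identifiers as far as the sources say, and intervals cover counting error only.

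The members and gene lists were chosen with earlier results of these data known. Named are all members, the immunoglobulin constant genes, and the 4 genes of highest CPM per kilobase in each other list (marker lists of other cells are given as sums, and 1 gene of the B cell list is not reported here); Pou2af1, Tnfrsf13c, Derl2, Ern1, Ern2, Il6, Il21 and Cd8a were named after their values were seen.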

Additional observations from a re-analysis of the deposited data

How the results depend on the processing

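The members' results held under most settings tried. No member passed the test of spread, or was a DESeq2 dispersion outlier, under any alternative, and the lowest adjusted p of a member was 0.170. Over all genes, the count called was 0 with DESeq2's scaling in edgeR, 629 with no filter on low counts, and 102 by DESeq2's dispersion outliers, and lay between 0 and 13 when a mouse was left out, with the 13 found without mouse 4; the cause was not tested. With no filter, 5 of 7 immunoglobulin genes, 2 of 12 B cell genes and 1 of 13 other plasma cell genes (Slamf7) passed, against 2.05% of 30751 genes. So did 5 of 5 skeletal muscle, 5 of 6 basal and squamous, 3 of 4 club and 3 of 9 macrophage and monocyte markers. Of other markers, 2 of 6 T cell, 2 of 4 tested neutrophil and 1 of 4 fibroblast genes passed. No alveolar type 2, dendritic or endothelial marker did. Without mouse 4, 1 of 7 immunoglobulin genes passed, against 13 of 17749 genes. No member exceeded 2-fold, and 1 was lowest in mouse 4, under each scaling and pseudocount tried. The difference between Tnfsf13b and Tnfsf13, 1.63 on the log2 scale, lay between 1.52 and 1.75 when a mouse was left out and between 1.48 and 1.76 with pseudocounts of 1 and 0.1. It was 2.03 with the longest transcript as length and 3.70 with no length scaling, and the alternatives for shared exons, chosen after seeing the data, gave 0.90 and 0.31. The difference between Tnfrsf17 and Tnfrsf13b, -2.32, lay between -2.33 and -2.30 with a mouse left out and between -2.87 and -1.85 over the pseudocounts, and was -4.12 with no length scaling. Levels per kilobase moved by less than 1 SD for all 10 members under the other scaling and when a mouse was left out. With the longest transcript as length, 6 of the 10 moved by more, by up to 1.53 times (Xbp1). No paired analysis was possible because all mice belong to 1 group. With 3 mice, changes below the spread seen here could not be detected, and the low counts of Tnfrsf17 limit what can be said of it.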

Other observations

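All 6 T cell markers were highest in mouse 6 and lowest in mouse 5, with Cd4 at 64.7, 40.3 and 66.2 CPM and Cd8a at 25.1, 22.8 and 40.1 CPM in mice 4, 5 and 6. The 12 B cell genes were split, with 6 highest in mouse 4 and 6 in mouse 6. Ighg3, the heavy chain of IgG3, was also highest in mouse 6, at 3.58 times its level in mouse 5, while Ighg2c was highest in mouse 4, at 2.46 times its level in mouse 5. Constant regions of IgG are similar in sequence, so reads can be shared between them. Endothelial markers ran the other way, with all 4 highest in mouse 5, as were 6419 of the 17636 genes tested. These comparisons were made after the values were seen, and no explanation was tested.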
